A study of Mus musculus with 74 samples.

Results

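Sensory neurons sorted 3 days after spinal cord injury (SCI 3d) were compared with neurons sorted from naive mice. Every library of FACS-sorted cells labelled SCI at 3 days was taken, together with every library of sorted cells labelled control, from both sets of titles in the series. This gave 12 libraries of 4 SCI 3d mice and 18 libraries of 6 naive mice, out of 74 libraries in all, of which 66 came from sorted cells of 22 mice. The mouse was the replicate, since the 3 libraries of a mouse are wells of about 100 cells each from the same animal, and their reads were summed. The study asked how dorsal root ganglion (DRG) neurons that send an axon up the spinal cord respond when that central axon is cut, beside the response to crush of the peripheral sciatic nerve (SNI). All mice were females of the transgenic strain Thy1YFP16, 10 to 20 weeks old, and cells came from the DRG of lumbar level 4. SCI is labelled a dorsal hemisection at T9/10, which the study's methods describe as a transverse cut of the dorsal columns, and the naive mice had no surgery by their labels. They are titled as controls of day 1 (naive mice 1, 2 and 5) and of day 3 (naive mice 3, 4 and 6). SCI 3d mice 1 and 2 and naive mice 1 to 4 belong to the set titled FACS, and SCI 3d mice 3 and 4 and naive mice 5 and 6 to the set titled FACS2018.

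Large DRG neurons are proprioceptors and touch receptors whose single axon splits into a peripheral branch in the nerve and a central branch in the dorsal columns. Cutting the peripheral branch switches on transcription factors such as Atf3, Jun, Sox11 and Smad1 and, downstream, genes of axon growth, and cutting the central branch is known for a much weaker response. In the strain used here YFP is driven by the Thy1 promoter, so a sort for YFP takes the neurons that this transgene marks and any other cell carried along with them. In libraries of pooled cells, fewer cells of a type and less RNA per cell cannot be told apart.

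Reads on genes numbered 50582929 to 83599972 per SCI 3d mouse and 47699504 to 74653760 per naive mouse. The label of sorted neurons was checked first, in each well. The share of reads on 13 genes of all sensory neurons, such as Tubb3, Snap25 and Nefl, lay between 3.01% and 4.13% in 8 SCI 3d wells and between 1.6% and 3.99% in 12 naive wells. In the other 4 SCI 3d wells and 6 naive wells, glial reads exceeded neuronal reads. These glia-rich wells held 3.64% to 15.9% of reads on a list of 16 markers of Schwann cells and satellite glia in SCI 3d mice, and 7.13% to 12.9% in naive mice, where the other wells held 0.421% to 0.88% and 0.394% to 1.76%. Neuronal genes made up 0.00916% to 1.21% of reads in the glia-rich SCI 3d wells and 0.0102% to 0.0637% in the naive ones. Genes with at least 20 reads numbered 3301 to 6459 in glia-rich SCI 3d wells and 11218 to 13340 in the others. All 3 wells of SCI 3d mouse 3 were glia-rich, as was 1 well of SCI 3d mouse 4, 2 wells each of naive mice 5 and 6 and 1 well each of naive mice 1 and 2. SCI 3d mouse 3 also held 4.63% of its reads on 11 stromal genes and 0.946% on 15 immune genes, where the other SCI 3d mice held at most 0.0215% and 0.00236%. All 13 neuronal genes still had over 3 reads in that mouse. Naive mouse 5 stood apart too, since its 1 remaining well held 3.85% of its reads on 15 genes of small neurons, such as Calca and Tac1, and 0.109% on 21 genes of large-fibre neurons. Results are therefore given with all wells and, where stated, without the glia-rich wells, which leaves 3 SCI 3d mice and 6 naive mice. The part that these other cells play in the gene results was not tested beyond that.

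**Figure D1:**
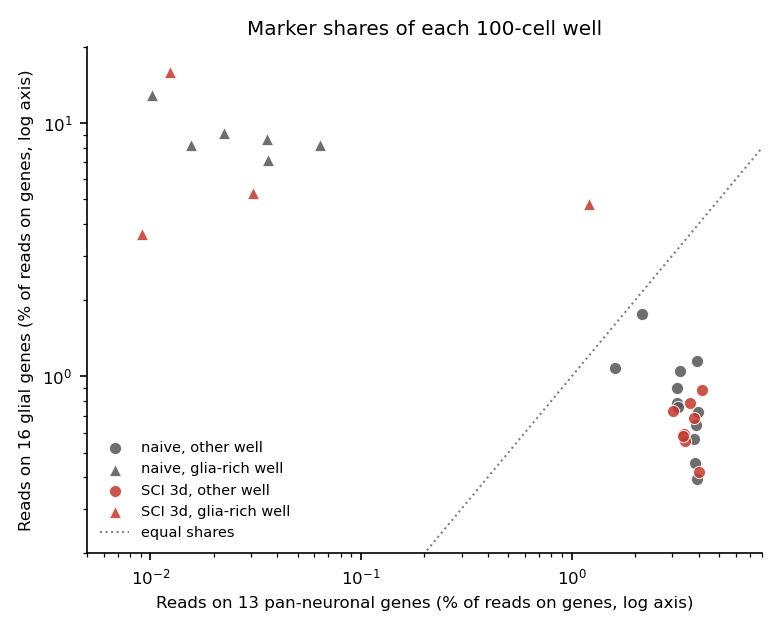
Each point is a well of about 100 sorted cells, placed by the percentage of its reads on 13 pan-neuronal genes (horizontal, log axis) and on 16 glial genes (vertical, log axis), for SCI 3d (red) and naive (grey) wells, with triangles for wells above the line of equal shares. The 10 triangles hold 3.64% to 15.9% glial reads, and the 20 circles hold at most 1.76%.

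Across all genes, no gene passed the threshold between SCI 3d and naive neurons. Of 23507 genes tested, 0 (0%) had an adjusted p under 0.1 in edgeR's quasi-likelihood test with 2 factors of unwanted variation, and the lowest adjusted p was 0.17. Leaving out SCI 3d mouse 1, 2 or 3 gave 12, 7 or 1 called genes, and leaving out any other of the 10 mice gave 0. At an unadjusted p under 0.05 there were 2209 genes, of which 1406 (5.98% of genes tested) were higher and 803 (3.42%) lower after SCI. With factors from residuals that were not centred, 782 of 1471 such genes were higher. Under DESeq2 with the same factors 1254 genes (5.33%) were called, and under limma 0, with 1960 genes at an unadjusted p under 0.05. Mice of the same group varied with a biological coefficient of variation of 1.20, and the typical (median) standard error of a gene's log2 fold change was 1.16. With set and replicate number as a block, 0 genes were called and 941 had an unadjusted p under 0.05. Without the glia-rich wells 0 genes were called, 3075 (13.6%) were higher and 224 (0.99%) lower at an unadjusted p under 0.05, and the median log2 fold change of all genes moved from 0.01 to 0.31. Values from that fit are read relative to this shift. The shift varied with the fit: the same wells gave a median of -0.06 without the factors and 0.16 under limma. Without the factors 1009 genes were higher and 411 lower in those wells at an unadjusted p under 0.05. With all wells the split also turned with 1 mouse: without naive mouse 5, 946 genes were higher and 1152 lower at that p. No gene is therefore said to rise or fall below, and the values stand for the 4 and 6 mice named.

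Among 19 transcription factors of the nerve injury response, Atf3, Smad1, Crem and Cebpd were higher in SCI 3d neurons at an unadjusted p under 0.05 and none was lower. At that p 5.98% of all genes tested were higher and 3.42% lower. The median log2 fold change of the list was 0.07, beside 0.01 for all genes tested, with 10 genes higher and 9 lower. Without glia-rich wells the median was 0.05, beside 0.31 for all genes, again with 10 higher and 9 lower. There 3 were higher and 1 lower at an unadjusted p under 0.05, where 13.6% of all genes were higher and 0.99% lower. With all wells Smad1 was the only one of the 19 whose SCI 3d mice all lay above the naive mice, which held for 62 of 23507 genes tested (0.264%). Smad1 (ENSMUSG00000031681.16, chromosome 8, 79338395 to 79399518, minus strand, GRCm38) encodes a transcription factor that carries bone morphogenetic protein signals to the nucleus. Its level in CPM, the reads of a gene scaled to a common library total, was 44.9, 39.6, 51.0 and 97.5 in SCI 3d mice 1 to 4. In naive mice 1 to 6 it was 16.02, 24.3, 22.8, 39.5, 16.7 and 20.0 CPM. The groups touched without overlapping, as SCI 3d mouse 2 and naive mouse 4 lay almost at the same level. The mean was 58.2 ± 26.6 CPM (SD, n = 4) after SCI and 23.2 ± 8.64 CPM (SD, n = 6) in naive mice. The fitted log2 fold change was 1.38 (standard error 0.43, edgeR p = 0.0049, adjusted p = 0.45). The exact permutation test on log2(CPM + 1), two-sided over 210 splits, gave p = 0.0095. This is the smallest it can give, and it follows from the lack of overlap. Without glia-rich wells the SCI 3d level was 46.4, 42.4 and 54.4 CPM, and naive mouse 6 lay above them at 65.6 CPM, so that the groups overlapped (exact permutation p = 0.17). The highest well of all 30 was the glia-rich well c of SCI 3d mouse 4, at 207 CPM.

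Atf3 is the stress factor used as the usual mark of an axotomized neuron. Atf3 (ENSMUSG00000026628.13, chromosome 1, 191170296 to 191218039, minus strand) stood at 317, 32.2, 168 and 178 CPM in SCI 3d mice 1 to 4. In naive mice 1 to 6 it stood at 23.4, 42.0, 77.3, 225, 14.2 and 104 CPM. SCI 3d mouse 1 lay above every naive mouse, SCI 3d mouse 2 lay below 4 of them, and naive mouse 4 lay above 3 of the 4 SCI 3d mice. The fitted log2 fold change was 1.31 (standard error 0.62, edgeR p = 0.047, adjusted p = 0.53), and the exact permutation test gave p = 0.19. Against the naive mice of day 3 alone it was 0.25, without naive mouse 5 it was 0.81, and without SCI 3d mouse 1 it was 0.89. Within the set titled FACS the difference of mean log2(CPM + 1) was 0.65, and within the set titled FACS2018 it was 2.13. The Atf3 level of SCI 3d mouse 3 came from glia-rich wells alone, at 73.7, 95.8 and 208 CPM. Naive mice 5 and 6, the naive mice of the set titled FACS2018, had 2 glia-rich wells each. Without glia-rich wells the fitted log2 fold change of Atf3 was 1.1, beside a median of 0.31 for all genes.

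Sox11, a factor of developing and regrowing neurons, was at 311, 103, 1.43 and 279 CPM in SCI 3d mice and at 61.0, 52.5, 49.3, 269, 54.7 and 4.37 CPM in naive mice. SCI 3d mice 1, 2 and 4 lay above naive mice 1, 2, 3, 5 and 6, and SCI 3d mouse 3, whose wells were all glia-rich, lay below all of them. Over all wells the exact permutation test gave p = 0.77, and without glia-rich wells p = 0.048, with levels of 321, 110 and 372 CPM against 11.7 to 285 CPM. Crem, a factor that binds cAMP response elements, had a fitted log2 fold change of 1.64 (edgeR p = 0.021), but naive mouse 6 held the highest level of all at 148 CPM, against 10.1 to 44.4 CPM in SCI 3d mice, and without the factors the fitted change turned to -0.13. Cebpd, an inducible factor of inflammation, had 0.80, 0.035, 7.13 and 17.7 CPM in SCI 3d mice and at most 0.89 CPM in naive mice, so that only SCI 3d mice 3 and 4, both with glia-rich wells, lay above the naive mice. Jun, the partner of Atf3, ranged from 63.0 to 132 CPM after SCI and from 58.1 to 285 CPM in naive mice (exact permutation p = 0.81). Klf6, a zinc finger factor of axon growth, ranged from 40.9 to 794 CPM and from 53.6 to 858 CPM (exact permutation p = 0.91), with its high values in mice that had glia-rich wells. Creb1, the cAMP response factor, ranged from 14.9 to 194 CPM and from 0.73 to 137 CPM (exact permutation p = 0.44).

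**Figure D2:**
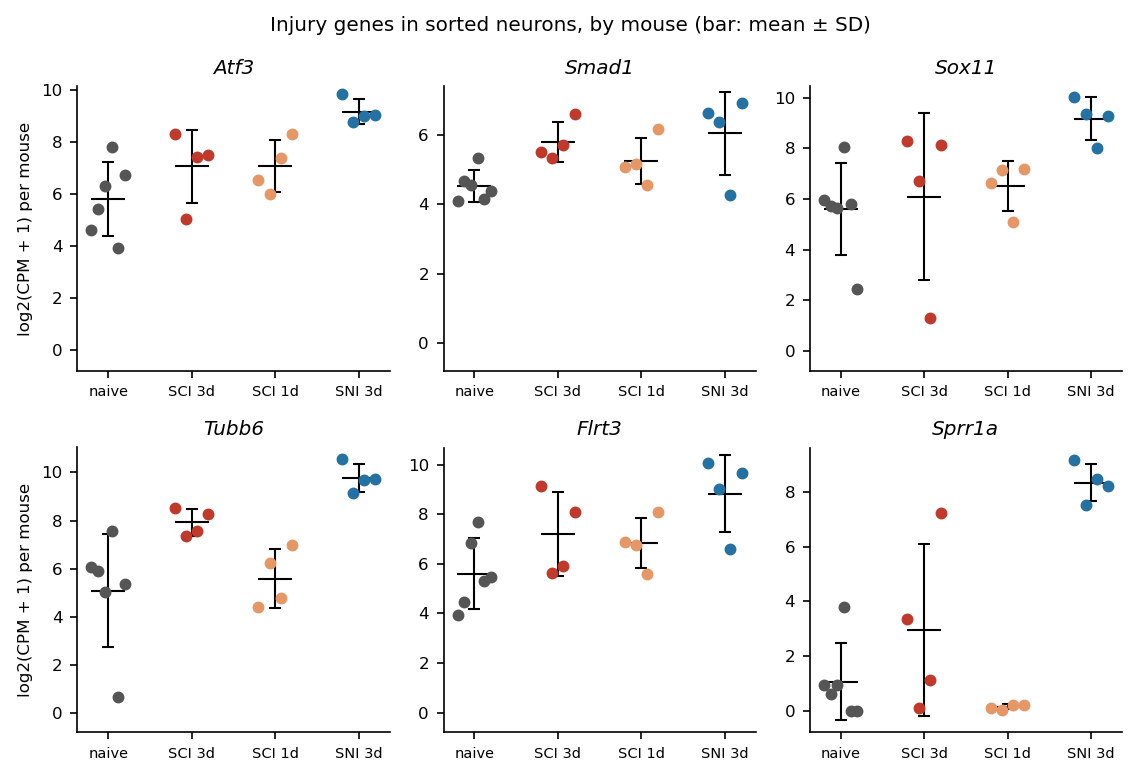
Points are mice, given as log2(CPM + 1) of 6 injury genes in naive, SCI 3d, SCI 1d and SNI 3d neurons, and bars show the mean ± SD. The 4 SCI 3d mice of Smad1 sit just above the 6 naive mice, those of the other genes overlap them, and the SNI 3d mice of Atf3 and Sprr1a lie above all SCI 3d mice.

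The next list holds genes that are known to go up when a peripheral axon is cut. Of 24 tested, 4 (Sprr1a, Flrt3, Sema6a and Ecel1) were higher at an unadjusted p under 0.05 and 0 lower, where 5.98% of all genes were higher, with a median log2 fold change of 0.87 and 17 of 24 above 0. Without glia-rich wells 21 were higher and 3 lower, with a median of 1.36 beside 0.31 for all genes. There 5 were higher at that p, where 13.6% of all genes were. By mouse, with all wells, the list's median difference from the naive mean, in log2(CPM + 1), was 0.75, 0.25, -0.14 and 1.10 in SCI 3d mice 1 to 4. Ecel1 is left without a fold, since its highest level was 1.31 CPM, in SCI 3d mouse 2. Sprr1a, a small proline-rich protein of regrowing axons (chromosome 3, 92483952 to 92485895), had 9.12, 0.070, 1.17 and 149.8 CPM in SCI 3d mice. Its naive levels were 0.93, 0.53, 0.93, 12.9, 0 and 0 CPM. SCI 3d mouse 4 stood alone, with 424 CPM in its well b and at most 1.39 CPM in its other wells, and SCI 3d mouse 2 lay below 4 naive mice (exact permutation p = 0.28). Flrt3, an adhesion protein of the growth cone, had 563, 48.4, 59.5 and 268 CPM after SCI and 14.4, 20.8, 112, 204, 38.1 and 43.0 CPM in naive mice (log2 fold change 1.57, edgeR p = 0.023, exact permutation p = 0.15). SCI 3d mice 1 and 4 lay above every naive mouse and the other two lay among them. Sema6a, a membrane semaphorin, had 74.9, 9.91, 19.1 and 29.0 CPM against 27.8, 16.9, 4.197, 44.5, 0.050 and 1.98 CPM. The neuropeptide genes Gal and Npy and the growth cone gene Gap43 did not separate the groups: Gap43 ranged from 75.2 to 844 CPM after SCI and from 3.62 to 1279 CPM in naive mice.

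The gene of growth and cytoskeleton that stood out was Tubb6, a beta-tubulin (ENSMUSG00000001473.6, chromosome 18, 67390717 to 67402749, plus strand). It had 369, 166, 187 and 310 CPM in SCI 3d mice. In naive mice it had 66.0, 58.4, 31.5, 187, 0.60 and 39.9 CPM. All SCI 3d mice lay above 5 of the 6 naive mice, and naive mouse 4 lay level with SCI 3d mouse 3. The mean was 258 ± 97.7 CPM (SD, n = 4) against 64.0 ± 64.7 CPM (SD, n = 6), a fitted log2 fold change of 2.84 (standard error 0.68, edgeR p = 0.00049, adjusted p = 0.33, exact permutation p = 0.029). Without naive mouse 5 the fold change was 1.76, and against naive mice of day 3 alone 1.58. It was higher in both sets, by 1.82 and 4.90 in mean log2(CPM + 1), and without glia-rich wells (log2 fold change 3.34, exact permutation p = 0.048). Of the 20 genes of that list it was the only one at an unadjusted p under 0.05, and the list's median was 0.06.

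Some injury genes had their highest levels in the same few wells. Of 9 genes looked at, 4 (Atf3 itself, Sox11, Flrt3 and Tubb6) shared their top 4 wells, and Smad1, Crem, Gap43, Sprr1a and Npy did not. This was looked for after the values by mouse had been seen, and it is a description with no test. Among the 30 wells, the 4 with the most Atf3 were wells a and b of SCI 3d mouse 1, well b of SCI 3d mouse 4 and well c of naive mouse 4, at 371, 753, 480 and 751 CPM. The same 4 wells were the top 4 for Sox11, for Flrt3 and for Tubb6. Well c of naive mouse 4 held 888 CPM of Sox11, 735 CPM of Flrt3 and 637 CPM of Tubb6, which is as much as in the wells of injured mice, while wells a and b of that mouse held 39.1 and 50.9 CPM of Atf3. Well c of SCI 3d mouse 1 held 67.2 CPM of Atf3 and 18.9 CPM of Sox11, although wells a and b of the same mouse were among the top 4. Npy, a neuropeptide that injured large neurons switch on, exceeded 1.5 CPM in 3 wells alone, at 933 CPM in well c of SCI 3d mouse 2, 536 CPM in well c of naive mouse 4 and 428 CPM in well a of SCI 3d mouse 1. Over the 20 wells that were not glia-rich, the levels of Crem, Flrt3, Jun and Sema6a had Spearman correlations with Atf3 of 0.82, 0.75, 0.74 and 0.69, the high end of these lists. The median over 22 genes of the nerve cut list was 0.18, over 18 injury factors 0.12 and over 13 pan-neuronal genes 0.12. Wells of a mouse and of a set share their animal and their preparation, so these 20 points are not independent. Of the 8 SCI 3d wells that were not glia-rich, 3 held over 300 CPM of Atf3, against 1 of 12 naive wells and 6 of 8 SNI 3d wells.

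**Figure D3:**
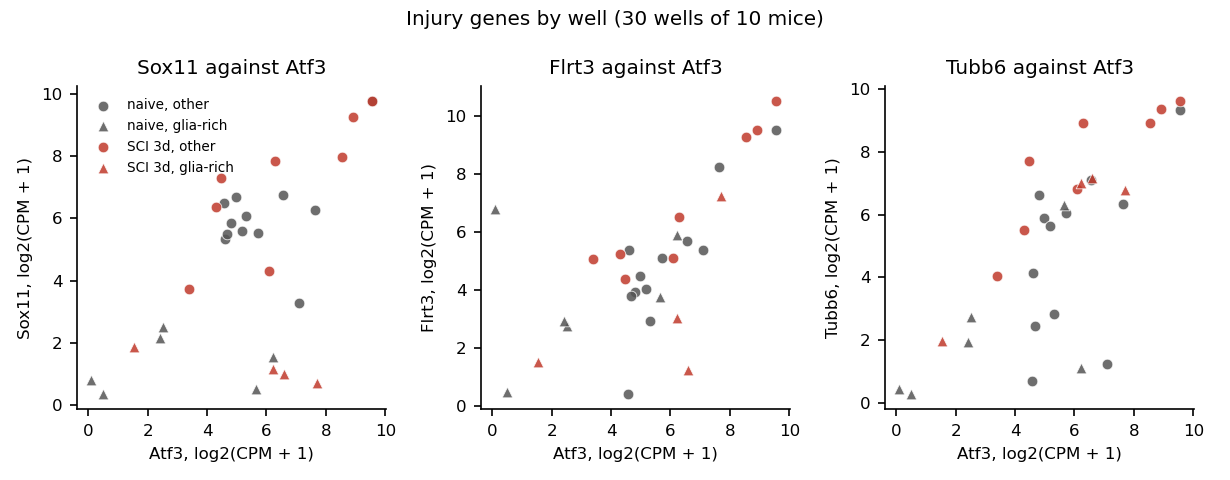
Each point is 1 of 30 wells, with Atf3 on the horizontal axis and Sox11, Flrt3 or Tubb6 on the vertical axis, all as log2(CPM + 1), for SCI 3d (red) and naive (grey) wells, with triangles for glia-rich wells. The same 4 wells, 3 of SCI 3d mice and 1 of naive mouse 4, lie at the top right of each panel.

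Lipid synthesis was the pathway group the study turned to. Of 21 enzymes from acetyl-CoA to cholesterol, 5 were higher and 16 lower in SCI 3d than in naive neurons, and 1 of them, Lss, had an unadjusted p under 0.05. The median log2 fold change was -0.16 with all wells and -0.22 without glia-rich wells, where the median of all genes was 0.31. Without glia-rich wells Fdps, Pmvk and Tm7sf2 were lower and 0 higher at an unadjusted p under 0.05, where 0.99% of all genes were lower. Lss, lanosterol synthase (ENSMUSG00000033105.12, chromosome 10, 76531588 to 76557138, plus strand), had 22.04, 13.5, 40.5 and 159 CPM after SCI. Its naive levels were 10.4, 3.30, 16.9, 16.03, 9.36 and 1.98 CPM. SCI 3d mice 1, 3 and 4 lay above every naive mouse, and the level of mouse 4 came from its glia-rich well c, at 519 CPM, while its wells a and b held 6.53 and 40.1 CPM. The fitted log2 fold change was 2.60 (standard error 0.75, edgeR p = 0.0024, adjusted p = 0.41, exact permutation p = 0.029), and without glia-rich wells it was 0.71 (edgeR p = 0.20, exact permutation p = 0.14). Without SCI 3d mouse 4 it was 1.23. Hmgcs1, which makes HMG-CoA in the cytosol, ranged from 406 to 978 CPM after SCI and from 451 to 1493 CPM in naive mice (exact permutation p = 0.81).

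The 13 genes that sense or move sterols, such as the Srebf factors, gave none at that p, with a median of -0.01. Among 20 genes of fatty acid synthesis, elongation and activation, 10 were higher and 10 lower, with a median of 0.03 and none at an unadjusted p under 0.05. Fasn, fatty acid synthase (chromosome 11, 120805846 to 120824547), had 36.5, 32.0, 18.5 and 11.4 CPM in SCI 3d mice. In naive mice it had 29.7, 82.0, 33.3, 30.8, 28.2 and 33.7 CPM. SCI 3d mice 3 and 4 lay below every naive mouse, mice 1 and 2 lay among them, and the fitted log2 fold change of -0.70 (standard error 0.47, edgeR p = 0.15, exact permutation p = 0.18) was within the spread between mice. Without glia-rich wells it was -0.87 (standard error 0.40, edgeR p = 0.046, exact permutation p = 0.19). Of 16 genes of the PPAR receptors, lipid droplets and fatty acid oxidation, Plin4 and Ppara had an unadjusted p under 0.05. Plin4 was at 3 reads or fewer in every naive mouse and Ppara was listed at 0 in 4 of them, so no fold is given. Plin4, which coats lipid droplets, had 0.44, 0.070, 6.88 and 0.36 CPM after SCI and at most 0.078 CPM in naive mice, and its largest value came from the glia-rich well c of SCI 3d mouse 3, at 18.9 CPM. Ppara had 2.14, 0.035, 0.069 and 13.3 CPM, and Pparg, the receptor of fat cells, had at most 2.73 CPM in any of these mice.

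For the kinase cascade that starts the injury response in the axon, from DLK to JNK, mRNA levels were compared, which do not measure its activity. Of 12 kinases and scaffolds 4 were higher and 8 lower, with a median of -0.21. Map2k4 and Mapk9 were lower at an unadjusted p under 0.05, where 3.42% of all genes were lower. The list's median difference from the naive mean, in log2(CPM + 1), was 0.44, 0.38, -2.05 and -0.38 in SCI 3d mice 1 to 4. Without glia-rich wells 3 were higher and 9 lower, with a median of -0.19 beside 0.31 for all genes, and 0 were lower at that p. Map2k4, the kinase between DLK and JNK, had 110, 155, 0.53 and 55.5 CPM after SCI and 50.4 to 175 CPM in naive mice. Only SCI 3d mouse 3 lay below the naive mice, and in the set titled FACS the log2 fold change turned to 0.13. Map3k12, which encodes DLK, had 10.0, 14.9, 0.023 and 2.70 CPM after SCI and 9.96, 7.25, 10.2, 5.92, 44.3 and 8.40 CPM in naive mice (exact permutation p = 0.23), so that its 2 low values belonged to the 2 mice with glia-rich wells.

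Of 21 genes of large-fibre neurons, Ntrk3, Calb1 and Calb2 were higher at an unadjusted p under 0.05 and 0 lower, with a median of 0.27 and 15 above 0. Without glia-rich wells 8 of the 21 were higher at that p, where 13.6% of all genes were, 20 lay above 0 and the median was 0.84, beside 0.31 for all genes. Ntrk3, the receptor of neurotrophin-3 on proprioceptors, had 317, 242, 135 and 162 CPM after SCI and 143, 143, 195, 220, 0.98 and 75.6 CPM in naive mice (log2 fold change 1.90, edgeR p = 0.028, exact permutation p = 0.16). Without naive mouse 5 the fold change was 0.47, and against naive mice of day 3 alone 0.41. SCI 3d mice 1 and 2 lay above all naive mice, and the low end was naive mouse 5, whose neurons carried the markers of small cells. Calb1, a calcium buffer, had 114, 39.4, 73.7 and 6.54 CPM after SCI and 13.5, 10.5, 39.3, 0.30, 0.025 and 0.10 CPM in naive mice (exact permutation p = 0.067). Calb2, a buffer of another set of mechanoreceptors, was present in 1 mouse, SCI 3d mouse 1, at 69.3 CPM, of which well b held 231 CPM and the other wells at most 3.56 CPM. Nefh, the heavy neurofilament of large axons, had 3138, 1963, 136 and 719 CPM after SCI and 66.0 to 2049 CPM in naive mice (exact permutation p = 0.95). The 13 genes of small neurons tested had a median of -0.89 with 3 higher and 10 lower, and without glia-rich wells this turned to 0.21 with 8 higher and 5 lower. Gfra3, a receptor subunit of small neurons for artemin, had 399 CPM in naive mouse 5 and at most 3.99 CPM in any other of the 10 mice, so its fitted sign (higher after SCI at an unadjusted p under 0.05) goes against the mean levels and no fold is given.

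Of 26 voltage-gated channel subunits 6 were higher and 20 lower with all wells, with a median of -0.42. Without glia-rich wells 21 were higher and 5 lower, with a median of 0.54, so the direction of this list turned with the choice of wells. Kcnq3, a subunit of the potassium channel that brakes firing, had 72.9, 46.7 and 47.8 CPM in the 3 SCI 3d mice without glia-rich wells. The 6 naive mice had 44.2, 23.4, 14.6, 30.5, 0 and 1.04 CPM. The groups did not overlap (log2 fold change 2.54, standard error 0.58, edgeR p = 0.00042), while with all wells SCI 3d mouse 3 had 1.04 CPM. Without glia-rich wells the SCI 3d mice all lay above the naive mice in 260 of 22620 genes (1.15%). The exact permutation p of 0.024, the smallest that 84 splits can give, follows from the lack of overlap and adds nothing to it. Unc5c, a netrin receptor chosen after its values were seen, had 23.3, 31.4 and 28.5 CPM in those 3 mice and 21.1, 21.7, 16.02, 15.2, 0.91 and 0.087 CPM in naive mice (log2 fold change 2.02), and no test is given, since it ranked first among genes taken for not overlapping. Naive mice 5 and 6 were at or under 1.04 CPM in both genes, and the other naive mice also lay below the 3 SCI 3d mice. Cacna1a, a calcium channel of nerve endings, had 7.08, 8.97, 0.069 and 2.76 CPM against 2.89 to 16.2 CPM, and its sign turned in the mice titled FACS without glia-rich wells. In the vesicle release list Cplx1, complexin 1, was alone at an unadjusted p under 0.05 and its groups overlapped fully (618 or more CPM in 3 SCI 3d mice and in 3 naive mice), and its sign turned without naive mouse 5.

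The remaining lists gave few genes at an unadjusted p under 0.05. Among trophic factors and their receptors there were 2 of 19, Ntrk3 and Gfra3, and none of 19 guidance genes. Errfi1, a brake on the EGF receptor, was the 1 of 11 glucocorticoid targets, at 15.1, 10.4, 0.48 and 91.3 CPM after SCI and 12.7, 8.88, 6.03, 2.46, 0.23 and 0.73 CPM in naive mice (exact permutation p = 0.23). None of 12 immediate early and heat shock genes or of 11 genes of the integrated stress response reached that level. Of the genes of other cells, 3 of 14 immune genes were higher, Csf1r, Cx3cr1 and Ms4a7, at 95.8, 83.5 and 193 CPM in SCI 3d mouse 3 and at most 3.84 CPM in the other SCI 3d mice. Naive mouse 6 held 61.9 CPM of Csf1r and an immune share of 3.27%, above the 0.946% of SCI 3d mouse 3. Of 10 stromal genes Pecam1 was higher, at no more than 4.80 CPM in any mouse. The globin genes Hba-a1 and Hba-a2, which are near-identical copies, were at 165 and 124 CPM in naive mouse 1 and under 4 CPM in every other mouse, and they were the 2 of 5 red cell genes at an unadjusted p under 0.05. Without glia-rich wells none of 4 tested reached it, with 2 higher and 2 lower. None of 16 glial and none of 13 pan-neuronal genes had an unadjusted p under 0.05.

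**Figure D4:**
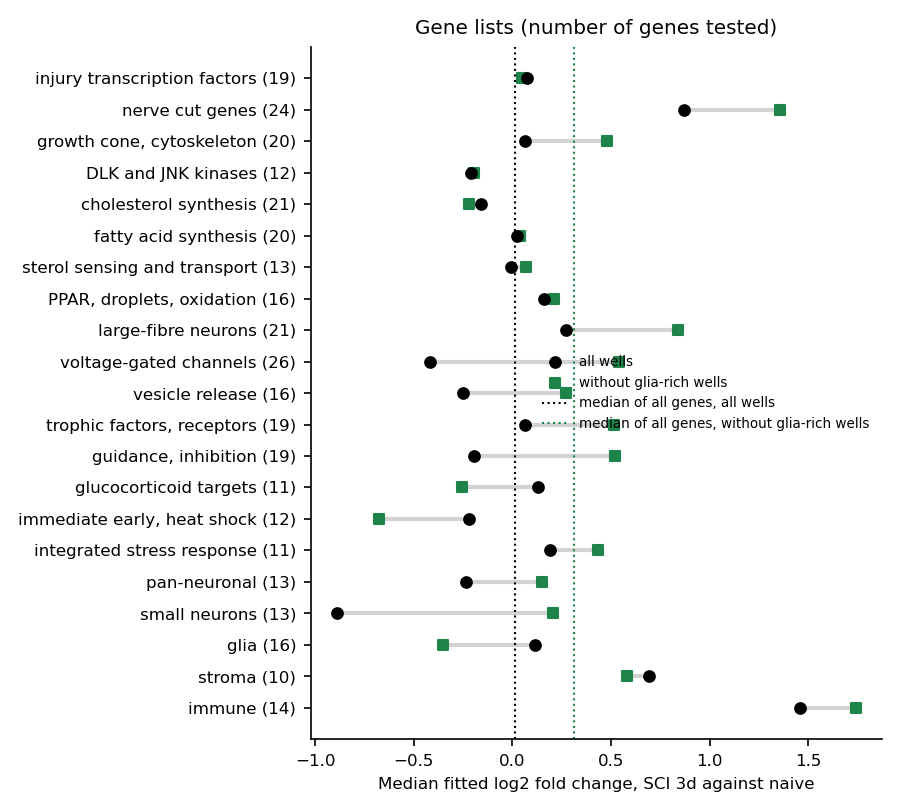
The median fitted log2 fold change of 21 gene lists, SCI 3d against naive, is shown with all wells (black) and without glia-rich wells (green squares), with the number of genes tested and dotted lines at the medians of all genes, 0.01 and 0.31. The channel list lies at -0.42 and at 0.54, and the list of 5 red cell genes, at -7.90 with all wells, is left out of the plot.

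The SCI 3d mice all lay above the naive mice in 62 of 23507 genes (0.264%) and all below in 16 (0.0681%), and without glia-rich wells in 260 (1.15%) and 49 (0.217%). A random split of the mice puts the SCI 3d mice all above in 1 of 210 cases, and without glia-rich wells in 1 of 84, and the same holds below. None of these shares exceeds that, so the counts show no excess of separated genes. The 10 genes in each direction with the smallest p among protein-coding genes at a mean of 1 CPM or more were Tlr7, Rps6kb2, Cdc42ep2, Mtpap, Tmem168, Setmar, Smad1, Eri1, Ppa2 and Ttc17 above, and Nek11, Brf1, Tk2, Dhh, Imp3, Prpf4b, Fbxl5, Ppid, Pole3 and Syn3 below. They were chosen because the groups do not overlap, so their exact permutation p of 0.0095 adds nothing to the choice. Rps6kb2, the second S6 kinase of the mTOR pathway (chromosome 19, 4153991 to 4163354), had 18.1, 21.6, 24.4 and 25.3 CPM after SCI. It had 9.22, 12.8, 11.5, 4.87, 0.18 and 3.75 CPM in naive mice. The 4 SCI 3d mice lay close together, including the mouse whose wells were all glia-rich, and the lowest naive value was that of naive mouse 5 (log2 fold change 2.22, standard error 0.61, edgeR adjusted p = 0.41, and 1.44 without that mouse).

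In some of the higher genes naive mouse 5 lay far below the other naive mice. Mtpap, the poly(A) polymerase of mitochondria, had 51.8, 45.9, 71.1 and 50.2 CPM after SCI and 33.8, 34.3, 37.2, 29.4, 0.40 and 40.4 CPM in naive mice. Cdc42ep2, an effector of the GTPase Cdc42, had 40.8 to 78.0 CPM after SCI and 27.5 to 35.2 CPM in naive mice other than mouse 5, which had 0.33 CPM. Without naive mouse 5 the fitted log2 fold change went from 1.68 to 0.53 for Mtpap and from 1.68 to 0.69 for Cdc42ep2. Tmem168, a membrane protein, had 18.2, 17.6, 79.6 and 22.5 CPM against 14.5, 9.74, 10.5, 10.3, 0.28 and 1.82 CPM, and also did not overlap without glia-rich wells. Ppa2, the mitochondrial pyrophosphatase, had 55.7 to 136 CPM after SCI and 26.8 to 50.6 CPM in naive mice, although without glia-rich wells and factors its fitted change was -0.07. Tlr7, a receptor of macrophages for viral RNA, had 0.011, 0.52, 30.8 and 0.060 CPM after SCI and was listed at 0 in all 6 naive mice, so that nearly all its reads came from SCI 3d mouse 3, and no fold is given.

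Among the lower genes, Prpf4b, a kinase of the splicing machinery, had 27.7, 28.5, 22.8 and 23.3 CPM after SCI and 38.0, 38.6, 34.5, 42.1, 61.4 and 46.8 CPM in naive mice. The 4 SCI 3d mice lay close together (log2 fold change -0.76, standard error 0.36, edgeR p = 0.048). Tk2, which makes thymidine nucleotides for mitochondrial DNA, had 12.2, 10.2, 0.046 and 10.5 CPM against 13.8 to 79.3 CPM, and did not overlap without glia-rich wells either. Dhh, desert hedgehog, a signal made by Schwann cells, had 0.99 to 2.21 CPM after SCI and 3.62 to 76.4 CPM in naive mice, with the highest value in naive mouse 6, whose glial share of 8.28% was the highest of the 10 mice. Pole3, a histone-fold subunit of DNA polymerase epsilon, had 13.8 to 29.4 CPM against 38.2 to 167 CPM, and Nek11, a kinase of the cell cycle, had at most 0.035 CPM against 0.63 to 13.8 CPM, with no fold given.

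**Figure D5:**
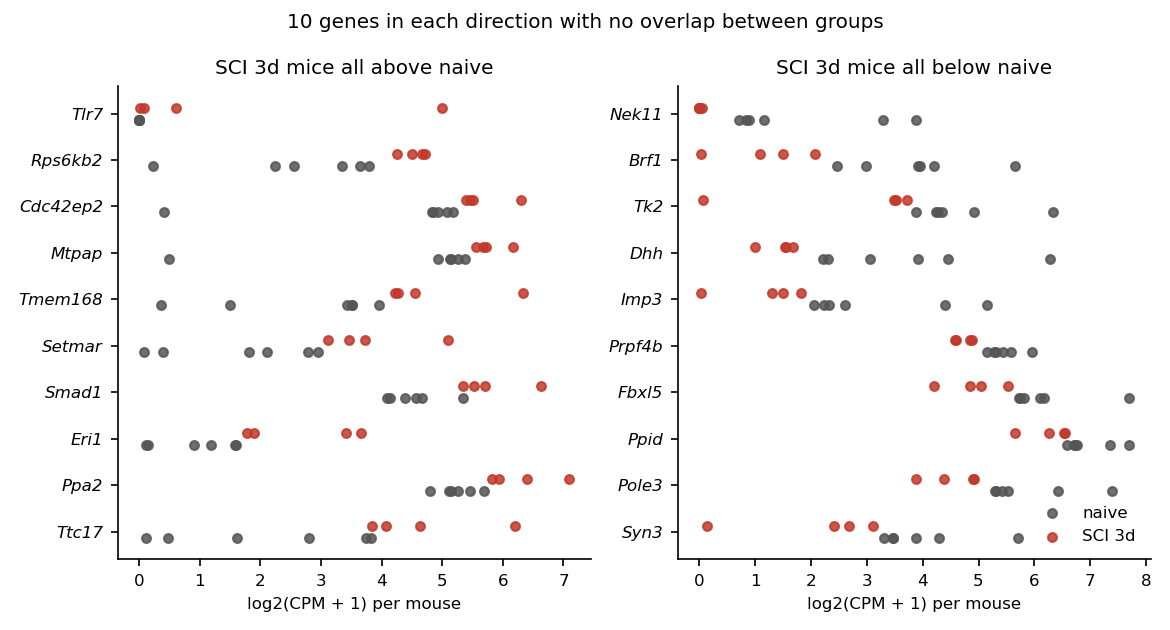
Points are mice, given as log2(CPM + 1), for the 10 genes with all SCI 3d mice (red) above the naive mice (grey), left, and the 10 with all below, right. For Cdc42ep2 and Mtpap a single naive mouse lies far to the left, and for Tlr7 a single SCI 3d mouse lies far to the right.

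The peripheral lesion was compared at the same day. In a direct test of SCI 3d against SNI 3d neurons (4 mice each), 0 of 23507 genes were called by edgeR, 1107 (4.71%) were higher and 882 (3.75%) lower at an unadjusted p under 0.05, and limma called 1 and DESeq2 976 (4.15%). Without glia-rich wells 742 (3.28%) were higher and 937 (4.14%) lower at that p, and leaving out SCI 3d mouse 3 or SNI 3d mouse 3 gave 4 or 3 called genes. Atf3 had 923, 435, 512 and 523 CPM after SNI, above all 4 SCI 3d mice (log2 fold change -1.78 for SCI 3d against SNI 3d, standard error 0.70, edgeR p = 0.020, adjusted p = 0.58). Sprr1a had 571, 185, 353 and 301 CPM after SNI, and again all SNI 3d mice lay above all SCI 3d mice. Sox11 had 1046, 659, 258 and 624 CPM after SNI, and there SCI 3d mice 1 and 4 reached the level of SNI 3d mouse 3, whose 3 wells were glia-rich as well (log2 fold change -2.53, edgeR p = 0.015). Tubb6 had 1492, 560, 823 and 858 CPM after SNI, above the SCI 3d mice in every case (log2 fold change -1.76, edgeR p = 0.025). Smad1 did not follow this order, with 98.1, 82.7, 18.3 and 119 CPM after SNI (log2 fold change -0.22, edgeR p = 0.65). Of the 19 injury factors 6 were higher and 13 lower after SCI than after SNI, with a median of -0.29 and 4 lower at an unadjusted p under 0.05. Without glia-rich wells 2 were higher and 17 lower, with a median of -0.77 beside -0.03 for all genes, and 7 were lower at that p. With all wells 22 of the 24 nerve cut genes were lower after SCI than after SNI, 5 of them at an unadjusted p under 0.05. Their median was -2.02, beside 0.03 for all genes. Without glia-rich wells 22 were lower, 6 of them at that p, with a median of -1.84. Fasn was lower too, with 64.0, 59.3, 57.5 and 79.4 CPM after SNI above every SCI 3d mouse (log2 fold change -1.43, standard error 0.51, edgeR p = 0.012). The sterol enzyme Hsd17b7 had 562, 286, 369 and 786 CPM after SNI and 74.6, 175, 59.7 and 239 CPM after SCI (log2 fold change -1.91, edgeR p = 0.0021). These mice are compared with each other directly, so the naive mice take no part.

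Between day 1 and day 3 after the same spinal lesion, 0 genes were called by edgeR, and 692 (2.94%) were higher and 1811 (7.7%) lower on day 3 at an unadjusted p under 0.05, while DESeq2 called 1103 (4.69%). Without glia-rich wells 798 (3.53%) were higher and 449 (1.98%) lower at that p. Atf3 had 92.2, 63.4, 168 and 314 CPM on day 1, a range that overlapped day 3 (log2 fold change 0.10, edgeR p = 0.89). Tubb6 had 20.0, 75.1, 26.3 and 124 CPM on day 1, below every mouse of day 3 (log2 fold change 2.17, standard error 0.74, edgeR p = 0.0081, adjusted p = 0.45). Sprr1a was at 0.024 to 0.17 CPM on day 1, and SCI 3d mice 1, 3 and 4 lay above that. Of the 21 cholesterol enzymes 4 (Hmgcs1, Msmo1, Nsdhl and Sc5d) were higher on day 3 than on day 1 at an unadjusted p under 0.05 and 0 lower, with a median of 0.66 beside -0.15 for all genes. Msmo1, a sterol demethylase, had 234, 130, 392.4 and 297 CPM on day 1 and 271, 390, 773 and 823 CPM on day 3 (log2 fold change 1.02, standard error 0.32, edgeR p = 0.0047). The ranges overlapped, as SCI 3d mice 1 and 2 lay below the highest mouse of day 1. Plin4 of the PPAR list had 52.1, 43.7, 116 and 4.42 CPM on day 1, against at most 6.88 CPM on day 3.

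Promoter sequence was searched for the sites that Atf3 and its partners bind. The windows ran from 250 bases before to 50 bases after RefSeq gene starts, and the words were TGACGTCA, the site of ATF and CREB factors, which reads the same on both strands, and the AP-1 word TGACTCA with its reverse TGAGTCA. They were present for 549 of 27025 genes (2.03%) and 1607 genes (5.95%). Of the 20 non-overlapping genes 12 had a window, and of the 19 injury factors 15, and none of these windows held either word. This says only that these letters are not in these windows.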

How the data were processed

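The authors trimmed reads with cutadapt, aligned them with STAR 2.5.3a to mm10 and counted them with HTSeq 0.6.1, and the deposited values are raw counts per gene and well. The 5 lines per file that name no gene were left out (no_feature held 3.6% to 15.9% of unique reads). Wells were grouped by their labels and summed per mouse. Names came from GENCODE for 53274 of 53379 gene identifiers. The authors' tables of fold changes and p-values were not used, and 0 columns belonged to other series. The study set aside outlier mice that the labels do not identify, so all mice were kept.

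Genes that reached 20 reads in 1 or more of the 22 mice were fitted with edgeR 4.0.16 in 5 groups. The fit used TMM, the quasi-likelihood test, a Benjamini-Hochberg adjusted p under 0.1 and 2 factors of unwanted variation. The factors came from residuals of a fit on groups alone, centred for each gene over all 22 mice. Counts were also simulated for all wells, without such factors, so the factor step itself was not tested. There edgeR recovered 43 of 200 genes changed by a log2 of 3, and 162 of 200 changed by 6. DESeq2 1.42.0 and limma 3.58.1 (R 4.3.3) were alternatives, beside other filters, factors, mice and wells. Single genes were tested by a two-sided exact permutation test on log2(CPM + 1) (scipy 1.17.1). With 4 against 6 mice the smallest p is 0.0095. Named genes were the 10 per direction with the smallest p among protein-coding genes whose groups do not overlap at a mean of 1 CPM or more, list genes at an unadjusted p under 0.05, and genes central to the study. Members and lists were chosen with earlier results of these data known. Deviations of the 6 pairs of mice sharing set and replicate number had correlations of 0.18 to 0.39, so a block on set and number was fitted too. Pairs of the same set with another number had -0.06 to 0.35. Of the SCI 3d mice 2 correlated best with a naive mouse of their own set and number, and mouse 4 had no such partner. The labels do not say whether same-numbered mice share a litter or day. Reads are amplified cDNA without molecular identifiers, so read numbers overstate precision, and the spread between mice sets the errors. Results on some genes are not reported here.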

Additional observations from a re-analysis of the deposited data

Results flagged for a closer look

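In 116 groups of mice and measures, 29 held a mouse far from the rest of its group by Dixon's test. Chance alone gives about 1 in 20, and these measures share mice, so the 29 are not independent.

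Naive mouse 5 accounts for many of them. Its CPM was low for Cdc42ep2 (0.327), Mtpap (0.403), Ntrk3 (0.982), Tubb6 (0.604), Nefh (66.0) and Cplx1 (36.2). It was high for Gfra3 (399), Fbxl5 (206) and Map3k12 (44.3), and its stromal share was 0.922%.

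SCI 3d mouse 3 held stromal and immune shares of 4.63% and 0.946%, with 193 CPM of Ms4a7, 95.8 of Csf1r, 30.8 of Tlr7, 79.6 of Tmem168, 6.88 of Plin4 and 0.046 of Tk2. Naive mouse 6 held an immune share of 3.27% with 61.9 CPM of Csf1r.

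Naive mouse 1 held a red cell share of 0.155%, with 165 CPM of Hba-a1 and 124 CPM of Hba-a2. SCI 3d mouse 1 held 69.3 CPM of Calb2 and 78.0 CPM of Cdc42ep2. SCI 3d mouse 2 held 1.31 CPM of Ecel1 and 2.73 CPM of Pparg. Fasn was at 82.0 CPM in naive mouse 2, and Sprr1a at 12.9 CPM in naive mouse 4.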

How the results depend on the processing

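For SCI 3d against naive, where edgeR called 0 genes, DESeq2 called 1254, no filter on low counts 12, and DESeq2 without glia-rich wells 909. Leaving out 1 mouse at a time gave 0 to 12 called genes. The 2209 genes at an unadjusted p under 0.05 became 1471 with uncentred factors, 1197 with mice titled FACS alone, 1093 with those mice and no glia-rich wells, 1462 with naive and SCI 3d mice alone, and 1420 without glia-rich wells and factors. With the replicate block there were 941, with 0 called, and the block changed no other call. Against SCI 1d the called genes were 1103 by DESeq2, 437 by DESeq2 without glia-rich wells and 2 with mice titled FACS. Against SNI 3d they were 976 by DESeq2, 565 by DESeq2 without glia-rich wells, 1 by limma and 35 by limma without glia-rich wells, and 0 to 4 when 1 mouse was left out. Exact tests gave p under 0.05 for 23 of 57 described genes, and for 15 without glia-rich wells. The choice of genes in part fixed these counts and they are no support. Of the described genes 20 were taken for not overlapping, and others for a small edgeR p.

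Signs turned for 6 genes. Cacna1a came to 0.11 and Map2k4 to 0.08 with mice titled FACS and no glia-rich wells, and Map2k4 to 0.13 with their glia-rich wells. Cplx1 came to -0.29 and Crem to -0.83 with naive mice of day 3 alone, and Crem to -0.13 without factors. Cplx1 ranged from -0.26 to 0.68 when 1 mouse was left out. Hba-a2 came to 0.06 by limma and Ppa2 to -0.07 without factors, both without glia-rich wells. The cause was not tested. Of 924 gene alternatives 880 kept direction and side of the threshold, and 47 of 57 genes had the same direction within both sets. Neither count measures how stable the sizes are. No gene passed in the main fit, so Cebpd counts as kept although it went from 4.07 to 0.01 by limma without glia-rich wells. Genes taken for not overlapping have the same direction within both sets by that choice. The limits are 4 and 6 mice, a wide spread between them, and wells that differ in cell content.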
